A study of Homo sapiens with 6 samples.

Results

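The later-annotated human miRNAs of this dataset are the 34 miRNAs whose number after hsa-miR- is at least 1000 and under 3000, among the 413 miRNAs listed in the deposited table. They were chosen by name alone. The table lists a further 293 miRNAs numbered under 1000, which served as the comparison, 69 numbered 3000 and above, and 17 of the let-7 family. The study sequenced the small RNA of MDA-MB-231, a human triple-negative breast cancer cell line. It sought miRNAs that differ after treatment with Withaferin A (WA), a steroidal lactone of the plant Withania somnifera. The WA-treated group (n = 3 libraries) received 2 µM WA for 24 h. The vehicle-treated group (n = 3 libraries) was kept for the same 24 h without WA. The methods of the study name DMSO as its vehicle, while the sample labels name none. All 6 libraries came from this 1 cell line, and the study calls the replicates of each group independent without describing separate cultures, so the p-values measure the spread between these libraries.

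A miRNA is cut from a hairpin in a longer transcript, first by the Microprocessor (Drosha with DGCR8) in the nucleus and then by Dicer in the cytoplasm. The mature strand guides Argonaute to messenger RNAs mainly through its seed, the bases near its start. Some hairpins bypass Drosha because they are whole short introns released by splicing, the mirtrons, and others lie inside small nucleolar RNAs (snoRNAs), which guide chemical modification of ribosomal RNA. miRBase numbers miRNAs in the order in which they were registered, so the later numbers hold many scarce miRNAs and several of these unusual hairpins.

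RefSeq (GRCh38) held a mature sequence for 32 of the 34 miRNAs, from 28 hairpins, and hsa-miR-1296-5p and hsa-miR-1304-3p are named only. The sequences below are those the results turn on, written 5′ to 3′ with the seed (bases 2 to 8) in capitals. The first set holds the 4 miRNAs that passed the test between the groups. hsa-miR-1275 lies at chr6:34000018-34000034 on the minus strand, outside any gene on its strand. hsa-miR-1269b lies at chr17:12917313-12917334 on the minus strand, also outside any gene on its strand. hsa-miR-1908-5p lies at chr11:61815209-61815229 on the minus strand within FADS1, a fatty acid desaturase gene, in an intron or an exon depending on the transcript. hsa-miR-1910-5p lies at chr16:85741669-85741689 on the minus strand in an intron of C16orf74.
hsa-miR-1275: gUGGGGGAgaggcuguc
hsa-miR-1269b: cUGGACUGagccaugcuacugg
hsa-miR-1908-5p: cGGCGGGGacggcgauugguc
hsa-miR-1910-5p: cCAGUCCUgugccugccgccu

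The second set holds the pairs that share a seed. hsa-miR-1260a (chr14:77266231-77266248, plus strand) and hsa-miR-1260b (chr11:96341447-96341465, plus strand) differed by 1 substitution, U9A counted from the first base of hsa-miR-1260a, over 18 shared bases, and hsa-miR-1260b was longer by 1 base. hsa-miR-1268a (chr15:22225308-22225325, minus strand) and hsa-miR-1268b (chr17:80098831-80098850, plus strand, in an intron of CCDC40) had 0 mismatches over 18 bases, and hsa-miR-1268b was longer by 2 bases. Apart from these pairs, no seed of the 32 sequences occurred in another matched miRNA of the table.
hsa-miR-1260a: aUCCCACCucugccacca
hsa-miR-1260b: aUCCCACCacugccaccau
hsa-miR-1268a: cGGGCGUGgugguggggg
hsa-miR-1268b: cGGGCGUGguggugggggug

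The third set holds the miRNAs whose hairpins overlap a snoRNA gene on the same strand. The hairpin of hsa-miR-1248 (chr3:186786675-186786701, plus strand, within EIF4A2, a translation initiation helicase gene) shares 103 of its 106 bases with SNORA81. The hairpin of hsa-miR-1291 (chr12:48654494-48654517, minus strand, in an intron of KANSL2) shares 75 of its 87 bases with SNORA2C.
hsa-miR-1248: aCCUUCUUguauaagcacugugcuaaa
hsa-miR-1291: uGGCCCUGacugaagaccagcagu

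The fourth set holds the hairpins measured on both arms in every library. hsa-miR-1306 lies within DGCR8 itself (5p arm chr22:20086072-20086093 and 3p arm chr22:20086112-20086129, plus strand), in an exon of most of its transcripts. hsa-miR-1307 lies within ATP5MK, a gene of the mitochondrial ATP synthase (3p arm chr10:103394301-103394322 and 5p arm chr10:103394341-103394361, minus strand).
hsa-miR-1306-5p: cCACCUCCccugcaaacgucca
hsa-miR-1306-3p: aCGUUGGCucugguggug
hsa-miR-1307-5p: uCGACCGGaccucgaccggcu
hsa-miR-1307-3p: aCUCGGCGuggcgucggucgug

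The fifth set holds the mirtron arms, with capitals here on the first 2 bases of a 5p arm and the last 2 bases of a 3p arm, since introns usually begin with GU and end with AG. The hairpin of hsa-miR-1226 is a whole DHX30 intron of 75 bases on the plus strand (chr3:47849555-47849580 for the 5p arm and chr3:47849608-47849629 for the 3p arm). The hairpin of hsa-miR-1229 is a whole MGAT4B intron of 69 bases on the minus strand (chr5:179798278-179798300 for the 3p arm). The 3p arm of hsa-miR-1228 (chr12:57194555-57194574, plus strand) ends 2 bases before the end of an LRP1 intron of 73 bases.
hsa-miR-1226-5p: GUgagggcaugcaggccuggaugggg
hsa-miR-1226-3p: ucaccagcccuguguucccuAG
hsa-miR-1229-3p: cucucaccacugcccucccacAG
hsa-miR-1228-3p: ucacaccugccucgccccCC

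The later-annotated miRNAs were richer in G and C than the miRNAs numbered under 1000. Their median GC content was 63.6% (range 34.8% to 95.2%, n = 32), against 47.8% (n = 263) for those numbered under 1000. A GC content of at least 60% was found in 22 of 32 (68.8%) against 43 of 263 (16.3%). The median length was 22 bases in both, but 5 of the 32 (15.6%) were shorter than 20 bases, against 3 of 263 (1.14%). Neither trait was particular to the later-annotated miRNAs. Of the 57 miRNAs numbered 3000 and above with a sequence, 29 (50.9%) had a GC content of at least 60%. In that class 7 (12.3%) were shorter than 20 bases. By the GENCODE annotation, a hairpin that touched an exon of a transcript was counted as in an exon there. On this basis 16 of the 34 lay in an intron, 9 in an intron or an exon depending on the transcript and 2 in an exon. Another 5 lay outside any gene on the same strand, and 2 had no matched position. The 2 counted as in an exon in each transcript spanning them were hsa-miR-1292-5p, in NOP56, a core protein gene of snoRNA particles, and hsa-miR-2110, in CCDC186. For hsa-miR-1292-5p this holds for the hairpin only. The mature sequence itself lies within a NOP56 intron of 178 bases in at least 1 transcript, 38 bases from the intron end.

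The libraries differed in depth and in likeness within each group. Total reads over the 413 miRNAs ranged from 710878 to 4778066 in the vehicle-treated libraries and from 156442 to 2232934 in the WA-treated ones. WA replicates 1 and 2, with 156442 and 564882 reads, resembled each other over the 34 miRNAs (Pearson r = 0.99 of log2 levels across these 34, which share the libraries and are not independent replicates), and WA replicate 3 resembled them less (r = 0.21 and 0.23) than it resembled the vehicle-treated libraries (r = 0.51 to 0.66). Vehicle replicate 1 stood apart within its group, being the highest of the 3 for 23 of the 34 miRNAs and over 3 times as high as both others for 10 of them. No 2 libraries of a group agreed within counting noise (chi-square of their read counts at least 14.4 per degree of freedom). Of the markers checked for the labelled cell line, miR-221-3p, miR-222-3p and miR-100-5p are known to be high in basal-like and mesenchymal breast cancer lines. All were above 0 in all libraries. Their sum was 128138 to 150797 CPM (reads scaled to a common library total) in the vehicle-treated libraries and 61499, 58708 and 169527 in WA replicates 1 to 3. The sum hides opposite differences within the vehicle-treated group. In vehicle replicates 1 to 3, miR-221-3p was at 64693, 9843 and 8473 CPM and miR-222-3p at 58782, 8517 and 9342. There miR-100-5p was at 27321, 115854 and 110323 CPM. The 5 markers of other cell types (miR-122-5p, miR-126-3p, miR-143-3p, miR-145-5p and miR-486-5p) summed to 1156 to 2115 CPM in the vehicle-treated and 940 to 4235 in the WA-treated libraries. Within this list the markers did not move together. In WA replicates 1 and 2, miR-143-3p, a smooth muscle and fibroblast miRNA, was at 863 and 1294 CPM (16.9 to 36.2 in the other libraries), and miR-145-5p, of the same cells, at 12.8 and 21.2 (0 to 2.69). The endothelial miR-126-3p was at 63.9 and 17.7 CPM there (219.4 to 3477 in the other libraries), and miR-486-5p, of red blood cells, at 0 and 5.31 (360.4 to 909). The liver miRNA miR-122-5p stayed between 0 and 11.3 CPM in all 6 libraries. The 4 epithelial miRNAs of the miR-200 family checked were all listed at 0 in WA replicates 1 and 2 and summed to 140.4 to 1891 CPM in the vehicle-treated libraries and 739 in WA replicate 3. The part of these markers in the results below was not tested. Because the libraries are bulk samples, fewer cells and less of a miRNA per cell cannot be told apart.

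Levels are given as normalized values, that is, reads divided by a size factor that brings the libraries to a common depth, as the authors deposited them. The later-annotated miRNAs were scarce next to the earlier ones. The median over miRNAs of the vehicle-treated mean was 36.4 for the 34, against 159 for the 293 numbered under 1000. Together they held 0.946%, 0.755% and 1.11% of the reads in vehicle replicates 1 to 3, and 0.511%, 0.285% and 0.156% in WA replicates 1 to 3. All 3 WA-treated libraries lay below all 3 vehicle-treated ones. The mean share was 0.936% ± 0.175 (SD, n = 3) in the vehicle-treated and 0.317% ± 0.180 (SD, n = 3) in the WA-treated group, a difference of -0.618 percentage points (two-sided p = 0.1 by an exact permutation test, which for 3 against 3 libraries can go no lower).

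The miRNAs that made up this share differed between libraries. hsa-miR-1307-3p, the most abundant of the 34 over all libraries, gave 21.6%, 49.9% and 53.9% of their reads in vehicle replicates 1 to 3, and 6.63%, 15.1% and 37.4% in WA replicates 1 to 3. The snoRNA-overlapping hsa-miR-1248 and hsa-miR-1291 gave 0.139% to 0.239% of these reads in the vehicle-treated libraries. They gave 59.4% and 46.2% in WA replicates 1 and 2, but 0.0574% in WA replicate 3. The leading miRNA of the class was thus hsa-miR-1307-3p in 4 libraries and hsa-miR-1248 in WA replicates 1 and 2.

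**Figure D1:**
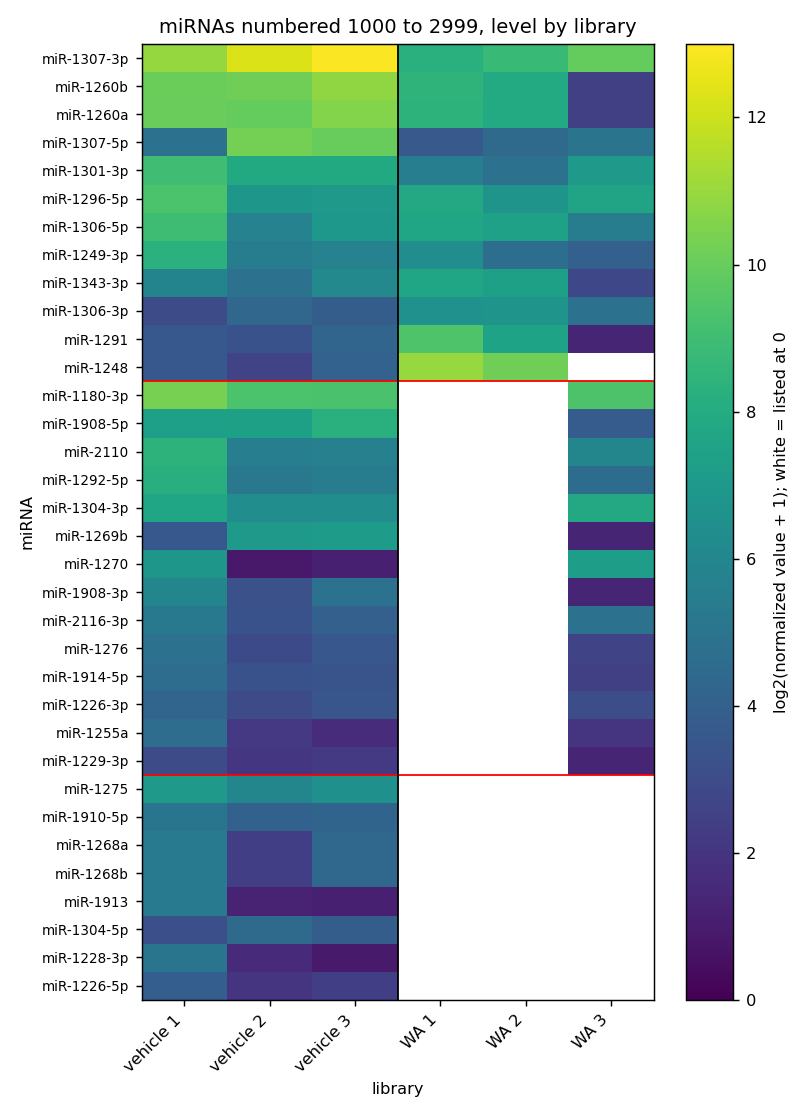
Level of each of the 34 miRNAs (vertical axis) in each of the 6 libraries (horizontal axis), coloured by log2(normalized value + 1), with white where the miRNA was listed at 0. Red lines separate 12 miRNAs above 0 in WA replicate 1 or 2, 14 listed at 0 in WA replicates 1 and 2 only, and 8 listed at 0 in all 3 WA-treated libraries.

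Detection differed between the groups and within the WA-treated group. In the vehicle-treated libraries 0 of the 34 miRNAs was listed at 0. In WA replicates 1 and 2 the same 22 (64.7%) were listed at 0, and in WA replicate 3 there were 9 (26.5%). Of the 34, 8 (23.5%) were at 0 in all 3 WA-treated libraries, 14 were at 0 in replicates 1 and 2 but present in replicate 3, and 11 (32.4%) were above 0 in every library. Of the 293 miRNAs numbered under 1000, 22 were listed at 0 in at least 1 vehicle-treated library. In both WA replicates 1 and 2, 60 of the 293 (20.5%) were listed at 0, and 10 (3.41%) in all 3 WA-treated libraries. Of the 69 numbered 3000 and above, 0 were at 0 in any vehicle-treated library, and 60 (87.0%) were at 0 in both WA replicates 1 and 2. The plot of shares listed at 0 shows this order in each WA-treated library. The listed miRNAs are only a part of those the study detected, and the paper describes them as found in both groups. Even so, 41 of all 413 were at 0 in all 3 WA-treated libraries. How the rows were chosen is not known here, and a choice that favoured miRNAs present in vehicle would give such a contrast. The part of this choice in the zeros was not tested.

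A listed 0 says little where the library is shallow. With 0 reads counted, as many as 3 are still possible, and 3 reads correspond to a normalized value of 17.4 in WA replicate 1, 5.36 in WA replicate 2 and 2.25 in WA replicate 3, against 0.857 to 4.06 in the vehicle-treated libraries. These floors cover counting error only. To lessen the part of depth, the comparison was limited to miRNAs whose lowest vehicle-treated value exceeded 17.4. Of the 15 later-annotated miRNAs above that level, 6 (40.0%) were still listed at 0 in WA replicates 1 and 2, namely hsa-miR-1180-3p, hsa-miR-1275, hsa-miR-1292-5p, hsa-miR-1304-3p, hsa-miR-1908-5p and hsa-miR-2110. The same was true of 30 of 196 (15.3%) numbered under 1000 and of 13 of 16 (81.3%) numbered 3000 and above. The cut did not match the levels of the classes, so a scarcer class could still lie nearer to the floor. The remaining part of depth in these shares was not tested.

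**Figure D2:**
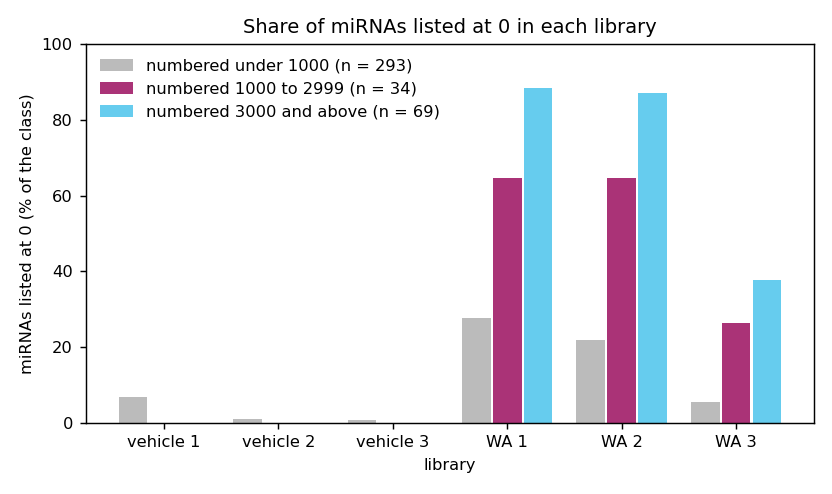
Percentage of miRNAs listed at 0 (vertical axis, % of each class) in each library (horizontal axis), with a bar for each number class. The bar of the later-annotated miRNAs stands at 0 in the vehicle-treated libraries, at 64.7% in WA replicates 1 and 2 and at 26.5% in WA replicate 3, between the other classes in each WA-treated library.

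Place in the genome and base composition were set beside this pattern. Of the 16 intronic miRNAs, 12 were listed at 0 in WA replicates 1 and 2, as were 4 of the 9 with a place that depends on the transcript. The same held for the 2 of 2 whose hairpins touched an exon in each transcript and for 3 of 5 outside genes. The 21 miRNAs with a sequence that were listed at 0 in these libraries had a median GC content of 68.0% and a median vehicle-treated mean of 21.5. For the 11 others these medians were 61.1% and 221.3. Composition and abundance thus moved together here, and the part of either in the zeros was not tested. Across the 19 tested miRNAs with a sequence, the log2 fold change and GC content had a Spearman correlation of -0.35, against -0.20 across 234 numbered under 1000 (descriptions across miRNAs that share the same libraries).

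The test between the groups was limma on log2(normalized value + 1), over the 327 miRNAs that reached a value of 10 in at least 3 libraries, with Benjamini-Hochberg adjustment over all 327. Of the 34 later-annotated miRNAs, 21 passed this filter, 3 of them (hsa-miR-1275, hsa-miR-1910-5p and hsa-miR-1269b) through the vehicle-treated libraries alone, so that these 3 had to be lower in WA. Of these 21, 4 (19.0%) passed a limma adjusted p of 0.05, all lower in WA, and 3 of these 4 are the miRNAs whose direction the filter had fixed. The remaining call was hsa-miR-1908-5p. Over all 327 miRNAs 18 passed (5.5%), 17 lower (5.2%) and 1 higher (0.306%), and of the 260 numbered under 1000, 8 passed (3.08%). At an unadjusted limma p under 0.05 there were 12 of the 21, all lower, beside 26.3% of all 327. The log2 fold change was negative for 17 of the 21 (81.0%), for 198 of 327 (60.6%) of all tested, and for 144 of 260 (55.4%) numbered under 1000. Its median was -3.92 for the 21, or -3.06 when the miRNAs listed at 0 in all WA-treated libraries were set to their bound, against -0.91 for all 327 and -0.57 for those numbered under 1000. These counts and medians describe the filtered miRNAs and not the whole class of 34.

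**Figure D3:**
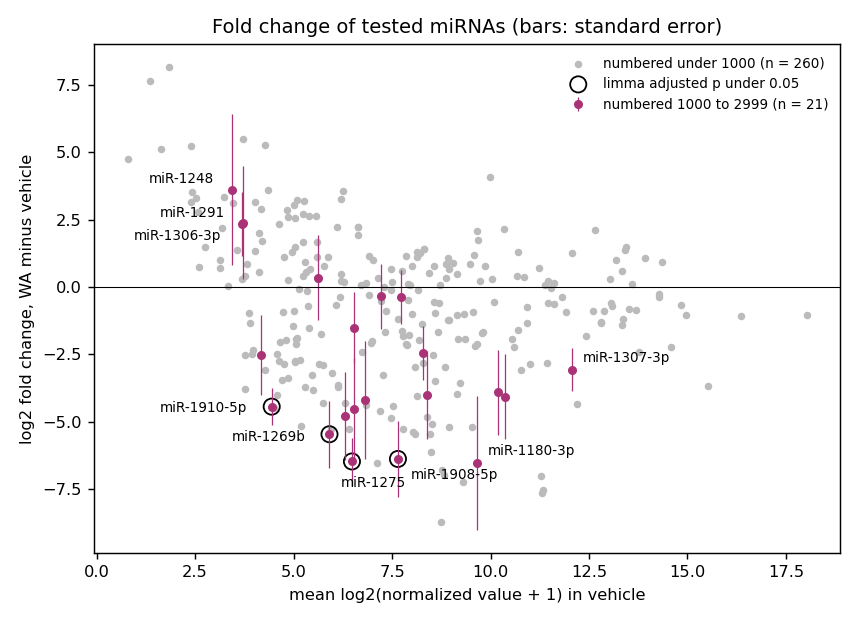
Log2 fold change, WA minus vehicle (vertical axis), against the mean log2(normalized value + 1) in the vehicle-treated libraries (horizontal axis) for the 21 tested later-annotated miRNAs (bars, standard error) and the 260 numbered under 1000. Circles mark the 4 with a limma adjusted p under 0.05, all lower in WA, while 4 of the 21 sit above the line at 0.

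hsa-miR-1275 was 1 of 2 down-expressed miRNAs with the lowest adjusted p of the class. It measured 123.3, 62.0 and 90.2 in vehicle replicates 1 to 3, from 91, 217 and 295 reads, and was listed at 0 in all 3 WA-treated libraries. The groups did not overlap. Its vehicle-treated mean of 91.8 ± 30.7 (SD, n = 3) was 11.0 times the WA-treated mean with each WA-treated library set at its floor of 3 reads. This ratio allows for counting error in WA only and leaves out the spread between the vehicle-treated libraries. The fitted log2 fold change was -6.48 (SE 0.87, limma adjusted p = 0.0276), a size that depends on the pseudocount of 1 and is no bound. The call was lost without vehicle replicate 2 or 3 or WA replicate 1 or 2 (limma adjusted p = 0.105 to 0.175), and without WA replicate 3 the adjusted p was 0.00097.

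hsa-miR-1910-5p followed the same pattern at a lower level. It measured 32.5, 15.7 and 17.4 in the vehicle-treated libraries, from 24, 55 and 57 reads, and was listed at 0 in all 3 WA-treated ones. Its vehicle-treated mean of 21.9 ± 9.24 (SD, n = 3) was 2.62 times the WA-treated mean set at the floors, again without the spread between the vehicle-treated libraries. The fitted log2 fold change was -4.44 (SE 0.69, limma adjusted p = 0.0276). The call was lost with a pseudocount of 10 (limma adjusted p = 0.0667) and without vehicle replicate 2 or 3 or WA replicate 1 or 2 (0.105 to 0.175). In WA replicate 1 its 0 carries little weight, because the floor of 17.4 there lies at the value of vehicle replicate 3 and above that of vehicle replicate 2.

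hsa-miR-1908-5p, the main arm of the FADS1 hairpin, also fell. It measured 159.8, 167 and 299 in the vehicle-treated libraries and 0, 0 and 12.8 in the WA-treated ones, where 17 reads of WA replicate 3 were all that was seen. The highest WA-treated value lay well below the lowest vehicle-treated one. The log2 fold change was -6.39 (SE 1.40, limma adjusted p = 0.0451). The call was lost with a pseudocount of 0.1 (limma adjusted p = 0.0941), with upper-quartile scaling (0.0547) and without any 1 library other than WA replicate 3 (0.0738 without vehicle replicate 1, up to 0.202). Its other arm, hsa-miR-1908-3p, was too scarce for the filter, at 62.3, 8.28 and 28.1 against 0, 0 and 1.503, and its groups did not overlap either.

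hsa-miR-1269b passed the test with a less even vehicle-treated group. It measured 10.8, 127 and 143.4 in vehicle replicates 1 to 3, and 0, 0 and 1.503 in WA replicates 1 to 3. The groups did not overlap, although vehicle replicate 1 lay far below its fellows and under the floor of WA replicate 1. The log2 fold change was -5.47 (SE 1.24, limma adjusted p = 0.0479). The call was lost with a pseudocount of 10 or 0.1 (limma adjusted p = 0.0717 and 0.0851), with upper-quartile scaling (0.0526), with scaling by the trimmed mean of M values (0.0581) and without vehicle replicate 2 or 3 or WA replicate 1 or 2 (0.166 to 0.204). Pooled, there were 920 reads in the vehicle-treated and 2 in the WA-treated libraries, a depth-corrected ratio of 126.4 with a counting interval of 34.9 to 1045. The vehicle-treated reads came as 8, 443 and 469 in replicates 1 to 3. The interval covers counting error only and leaves out this spread between libraries, so it is no bound on the difference between the groups.

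**Figure D4:**
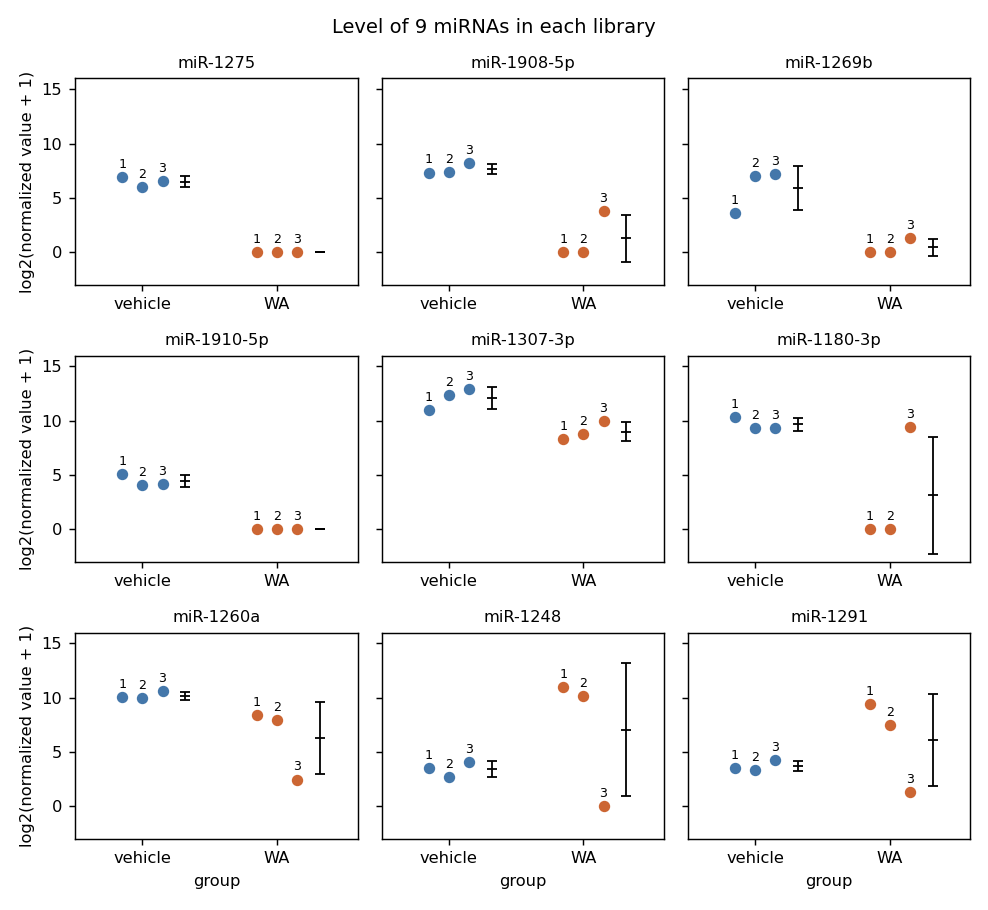
Level of 9 of the 34 miRNAs as log2(normalized value + 1) (vertical axis) in the vehicle-treated and WA-treated groups (horizontal axis), with a numbered point for each replicate and a bar for the mean and SD of each group (n = 3). hsa-miR-1275 and hsa-miR-1910-5p sit at 0 in all 3 WA-treated libraries, while hsa-miR-1180-3p, hsa-miR-1260a, hsa-miR-1248 and hsa-miR-1291 differ between WA replicate 3 and WA replicates 1 and 2.

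hsa-miR-1307-3p, the most abundant of the 34, stood just outside the threshold. It measured 1965, 5143 and 7639 in the vehicle-treated libraries and 307, 436 and 978 in the WA-treated ones. The groups did not overlap, and the mean was 4916 ± 2844 (SD, n = 3) against 574 ± 356 (SD, n = 3). The log2 fold change was -3.06 (SE 0.79, limma adjusted p = 0.0722), and it lay between -3.62 and -2.64 when each library was left out in turn. Unlike the zeros, these values rest on 53 to 24994 reads a library.

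Its partner from the same hairpin, hsa-miR-1307-5p, measured 28.4, 1254 and 1016 in the vehicle-treated libraries and 11.6, 21.4 and 30.8 in the WA-treated ones. The groups overlapped through vehicle replicate 1, which lay beside the WA-treated values (log2 fold change -4.01, SE 1.63, limma adjusted p = 0.176). Without vehicle replicate 1 the limma adjusted p of both arms was below the threshold. The 3p arm made up 98.6%, 80.4% and 88.3% of the reads of both arms in vehicle replicates 1 to 3, and 96.4%, 95.3% and 96.9% in WA replicates 1 to 3. The means were 89.1% ± 9.12 and 96.2% ± 0.828 (SD, n = 3 each), and the groups overlapped (exact permutation test, two-sided p = 0.4).

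hsa-miR-1306, whose hairpin lies in the transcript of the Microprocessor subunit DGCR8, gave arms with unlike patterns, neither of which passed the test. The 3p arm measured 6.77, 18.6 and 13.1 in the vehicle-treated libraries and 92.8, 104 and 27.8 in the WA-treated ones. It was the 1 tested miRNA of the class with every WA-treated value above every vehicle-treated one, which 7.65% of all 327 also showed (log2 fold change 2.35, SE 1.18, limma adjusted p = 0.243). The 5p arm measured 490.3, 53.4 and 120.1 against 209, 173 and 42.8, and the groups overlapped throughout (log2 fold change -0.34, SE 1.21, limma adjusted p = 0.861). As a share of both arms, the 3p arm was 1.36%, 25.8% and 9.86% in vehicle replicates 1 to 3 and 30.8%, 37.4% and 39.4% in WA replicates 1 to 3. All 3 WA-treated shares were higher, with means of 12.3% ± 12.4 and 35.9% ± 4.51 (SD, n = 3 each) and a difference of 23.5 points (two-sided p = 0.1 by an exact permutation test, its lower limit). The 95% Wilson intervals of vehicle replicate 2 (20.8% to 31.5%) and WA replicate 1 (19.9% to 44.3%) overlapped, so those 2 libraries did not differ beyond counting error.

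**Figure D5:**
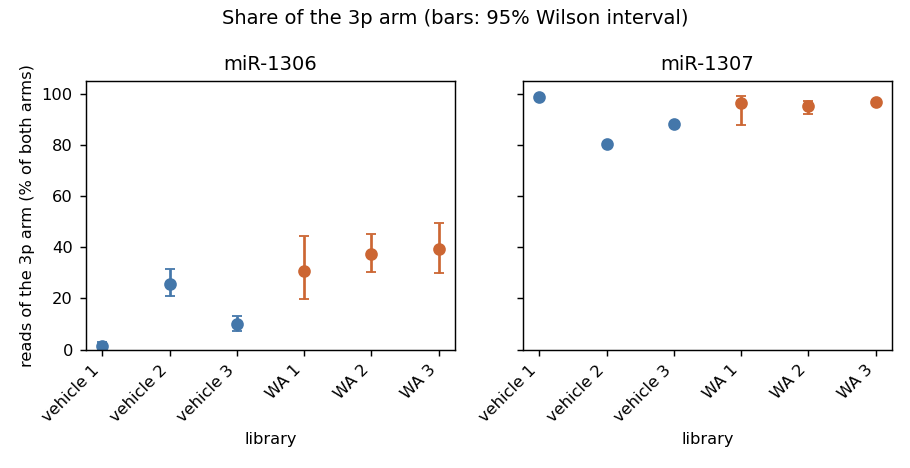
Share of reads from the 3p arm (vertical axis, % of the reads of both arms) for hsa-miR-1306 and hsa-miR-1307 in each library (horizontal axis), with 95% Wilson intervals as bars. For hsa-miR-1306 the WA-treated libraries sit between 30.8% and 39.4%, above the vehicle-treated ones at 1.36% to 25.8%, while for hsa-miR-1307 the groups overlap.

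For the other hairpins with both arms listed, the arms could be compared in the vehicle-treated libraries and WA replicate 3 alone, since WA replicates 1 and 2 held 0 reads of either arm. hsa-miR-1304-3p, from a hairpin within TAF1D, measured 205, 81.4 and 82.5 in the vehicle-treated libraries and 0, 0 and 226 in the WA-treated ones (log2 fold change -4.20, SE 2.204, limma adjusted p = 0.269). WA replicate 3 thus held more of it than any vehicle-treated library. hsa-miR-1304-5p measured 8.13, 21.4 and 13.4 against 0 in all 3 WA-treated libraries, so in WA replicate 3 all 301 reads of the hairpin came from the 3p arm. In the vehicle-treated libraries the 3p arm was 79.2% to 96.2% of the reads.

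The near-identical hsa-miR-1260a and hsa-miR-1260b were the next most abundant. As background, their sequence has been noted to match the end of a leucine transfer RNA. hsa-miR-1260a measured 1048, 983 and 1552 in the vehicle-treated libraries and 342, 245 and 4.51 in the WA-treated ones. hsa-miR-1260b measured 1063, 1170.4 and 1816 against 354, 245 and 4.51. In both, the groups did not overlap, and WA replicate 3 was the lowest library by far, with 6 reads. The log2 fold changes were -3.92 (SE 1.57, limma adjusted p = 0.176) and -4.07 (SE 1.57, limma adjusted p = 0.166). Without WA replicate 3 they were smaller, at -2.01 and -2.15, and passed the threshold (limma adjusted p = 0.0183 and 0.0159). The authors' counting may split or share reads between these copies, which had equal read counts in 2 of 6 libraries, so they are not separate observations.

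The same holds more strongly for hsa-miR-1268a and hsa-miR-1268b, which had equal read counts in 6 of 6 libraries. Each was listed at 40.6, 4.28 and 19.6 in the vehicle-treated libraries and at 0 in all 3 WA-treated ones, with 15 to 64 vehicle-treated reads. They are counted in the class as listed, but amount to 1 measurement.

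hsa-miR-1180-3p, from an intron of the ciliary gene B9D1, had the most negative log2 fold change of the class, but did not pass the test. It measured 1304.3, 632 and 626 in the vehicle-treated libraries and 0, 0 and 661 in the WA-treated ones (log2 fold change -6.53, SE 2.49, limma adjusted p = 0.163). WA replicate 3 lay inside the vehicle-treated range. At the lowest vehicle-treated level, 108 reads would have been counted in WA replicate 1 and 350 in WA replicate 2, far above the 3 that a listed 0 allows. hsa-miR-1292-5p showed a milder form, with 295, 35.4 and 45.2 against 0, 0 and 23.3, and groups that did not overlap (log2 fold change -4.78, SE 1.64, limma adjusted p = 0.126).

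The miRNAs whose hairpins overlap a snoRNA gene had the 2 highest log2 fold changes of the class, neither past the test. hsa-miR-1248 measured 10.8, 5.43 and 15.9 in the vehicle-treated libraries, then 2058 and 1149 in WA replicates 1 and 2 and 0 in WA replicate 3. The mean of WA replicates 1 and 2 was 149.6 times the vehicle-treated mean, while WA replicate 3 lay below every vehicle-treated library. Over all 6 libraries the log2 fold change was 3.62 (SE 2.82, limma adjusted p = 0.436), and without WA replicate 3 it was 7.14 (limma adjusted p = 0.00107). The call therefore depends on that 1 library.

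hsa-miR-1291 behaved alike, at 10.8, 8.85 and 18.0 in the vehicle-treated libraries and 696, 182 and 1.503 in the WA-treated ones (log2 fold change 2.39, SE 2.09, limma adjusted p = 0.469). Without WA replicate 3 the log2 fold change was 4.78 (limma adjusted p = 0.00606). Outside the class, the hairpin of miR-664a shares 74 of its 82 bases with SNORA36B, and its arms were set beside these. The 5p arm, hsa-miR-664a-5p, measured 0, 5.14 and 3.97 in the vehicle-treated libraries and 417, 57.2 and 51.8 in the WA-treated ones (limma adjusted p = 0.0753), so that here WA replicate 3 was high as well. The 3p arm, hsa-miR-664a-3p, measured 119, 19.7 and 22.9 against 0, 0 and 24.8 (limma adjusted p = 0.182). The study removed reads matching ribosomal, transfer, small nuclear and small nucleolar RNA before counting miRNAs, and how that step treated reads shared with these hairpins is not given in the sources used here.

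hsa-miR-1343-3p, from an intron of PDHX, was the remaining tested miRNA with a positive fold change. It measured 56.9, 28.3 and 68.8 in the vehicle-treated libraries and 209, 166 and 6.01 in the WA-treated ones. As with hsa-miR-1248 and hsa-miR-1291, WA replicates 1 and 2 lay above and WA replicate 3 below all vehicle-treated values (log2 fold change 0.35, SE 1.58, limma adjusted p = 0.891).

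The mirtrons were scarce, and none of the 4 arms of the class passed the filter. hsa-miR-1226-3p, from the DHX30 intron, measured 17.6, 6.85 and 10.1 in the vehicle-treated libraries and 0, 0 and 7.51 in the WA-treated ones. hsa-miR-1226-5p measured 13.5, 2.86 and 4.28 against 0 in all 3. hsa-miR-1229-3p measured 6.77, 3.14 and 3.67 against 0, 0 and 1.503. hsa-miR-1228-3p was uneven within the vehicle-treated group, at 32.5, 2.00 and 0.917, and was listed at 0 in all WA-treated libraries. Apart from the highest values of hsa-miR-1226-3p and hsa-miR-1228-3p, these vehicle-treated values lie under the 17.4 floor of WA replicate 1, so a difference was not detectable there. Of the mirtron arms outside the class, hsa-miR-877-5p measured 529.6, 171 and 220.1 against 34.8, 51.8 and 20.3 (limma adjusted p = 0.127), and hsa-miR-877-3p measured 35.2, 11.1 and 30.3 against 0, 0 and 2.25 (limma adjusted p = 0.0479).

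Counted over all 34 without a filter, 19 lay lower in WA with no overlap between the groups and 1 higher. Of all 413 miRNAs, 26.6% lay lower in this way. Of the 19, 10 lay under the filter, each with its lowest vehicle-treated value below the floor of WA replicate 1. The same held for hsa-miR-1910-5p and hsa-miR-1269b, so a 0 in that library says little for these miRNAs. The 19 also hold hsa-miR-1268a and hsa-miR-1268b, which amount to 1 measurement. The part of scarcity and depth in the 19 was not tested. Among the 21 tested, 10 had groups that did not overlap (27.2% of all 327 did), 9 lower (19.6% of all) and 1 higher. Among the 30 tested miRNAs numbered 3000 and above, 16 (53.3%) had groups that did not overlap, all lower. For 3 of the 9 lower (hsa-miR-1275, hsa-miR-1910-5p and hsa-miR-1269b) the filter itself left no other outcome. The 13 miRNAs under the filter were all listed at 0 in WA replicates 1 and 2, and 6 of them in all 3 WA-treated libraries. Their vehicle-treated values ran from 0.857 to 118, and 9 of the 13 had a vehicle-treated mean under 20. The 8 listed at 0 in all 3 WA-treated libraries were hsa-miR-1275, hsa-miR-1910-5p, hsa-miR-1268a, hsa-miR-1268b, hsa-miR-1226-5p, hsa-miR-1228-3p, hsa-miR-1304-5p and hsa-miR-1913. The last, from an intron of RPS6KA2, measured 40.6, 1.43 and 1.22 in the vehicle-treated libraries, where vehicle replicate 1 alone was high.

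A few of the remaining miRNAs were singled out after their values were seen. hsa-miR-1301-3p, from an intron of the DNA methyltransferase gene DNMT3A, measured 520.1, 235 and 241 in the vehicle-treated libraries and 46.4, 28.6 and 129 in the WA-treated ones. Its groups did not overlap, and all 6 libraries held reads (log2 fold change -2.45, SE 1.01, limma adjusted p = 0.176). hsa-miR-1270 was high in vehicle replicate 1 and WA replicate 3 only, at 118, 0.857 and 1.22 against 0, 0 and 149.5. Its level thus followed neither group. hsa-miR-1296-5p had overlapping groups, at 627, 116 and 131 against 226, 104 and 191 (log2 fold change -0.36, SE 0.99, limma adjusted p = 0.813). The other 6 miRNAs, hsa-miR-1249-3p, hsa-miR-1255a, hsa-miR-1276, hsa-miR-1914-5p, hsa-miR-2110 and hsa-miR-2116-3p, had vehicle-treated means of 9.98 to 144, and all but hsa-miR-1249-3p were listed at 0 in WA replicates 1 and 2.

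Leaving out WA replicate 3 changed the calls most. Without it, 16 of the 21 tested miRNAs passed a limma adjusted p of 0.05, 13 lower and 3 higher (hsa-miR-1248, hsa-miR-1291 and hsa-miR-1306-3p), where 147 of all 327 (45%) and 102 of the 260 numbered under 1000 (39.2%) did. The limma test called 0 of the 21 when either of vehicle replicates 2 and 3 was left out (6 at an unadjusted p under 0.05 in each fit) or either of WA replicates 1 and 2 (7 in each fit). Each of these fits also called 0 of all 327. At an unadjusted limma p under 0.05 they held 52, 46, 47 and 50 of the 327, in that order. Without vehicle replicate 1 it called 5 of the 21, beside 21 of all 327. Of these 5, 3 were among the 4 above (hsa-miR-1275, hsa-miR-1910-5p and hsa-miR-1269b).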

How the data were processed

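Small RNA of MDA-MB-231 cells was sequenced in 3 vehicle-treated and 3 WA-treated libraries. Per the labels and the study's methods, the authors trimmed reads (Trim Galore), aligned them to the genome (build GRCh38.p10) with Bowtie 1.1.1, removed other noncoding RNA, and matched the rest to miRBase 22 with ncbi-blast 2.2.30. The authors deposited 1 table of 413 miRNAs with a signal per library, the reads divided by a DESeq2 size factor. Every value was a whole multiple of 1 step per library (tolerance 1e-06), which gave reads and depth. The table's ratio (fold change), log2 fold change and p-value columns, deposited by the authors, hold their own comparison and were not used.

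Levels were tested with limma 3.58.1 in R 4.3.3, with a mean-variance trend, unpaired and two-sided, on log2(normalized value + 1), and adjusted over the 327 miRNAs that reached a value of 10 in at least 3 libraries. The script was tested on simulated counts in which all libraries of a group shared the same expected levels apart from depth. That setting does not include a library as unlike its group as WA replicate 3. Single values had exact permutation tests. Sequences and positions came from RefSeq and GENCODE 44. Groups came from the sample titles. The replicate numbers were not taken as pairs, since same-numbered libraries gave no sign of pairing. The miRNAs given library by library were those that passed, the 5 largest rises (4 were positive) and falls, the 5 highest means, both arms of shared hairpins, near-identical pairs, mirtrons and snoRNA overlaps. The miRNAs and lists were chosen with earlier results of these data known. Alternatives were other pseudocounts, no filter, other scalings over the same 327 miRNAs, a replicate block and leaving out each library.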

Additional observations from a re-analysis of the deposited data

How the results depend on the processing

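The count of later-annotated miRNAs called was 4 and depended on the settings. It was 2 with a pseudocount of 10, 2 with a pseudocount of 0.1, 2 with upper-quartile scaling and 10 of 34 with no filter, and it ranged from 0 to 16 when each library was left out. Over all miRNAs the count of 18 became 7 with either pseudocount and 53 with no filter, and ranged from 0 to 147 when each library was left out. For those numbered under 1000 the count of 8 became 3 and 4 with pseudocounts of 10 and 0.1, 23 with no filter and 14 with total-count scaling, and ranged from 0 to 102. With no filter more miRNAs are tested; the cause of the other changes was not tested. The median log2 fold change of -3.92 became -2.25 with a pseudocount of 10 and -2.93 with no filter, and ranged from -3.62 to -2.90 when each library was left out. The count of 10 miRNAs without overlap became 20 over all 34, and ranged from 10 to 18 when each library was left out. The count listed at 0 in all WA-treated libraries, 8, was 22 without WA replicate 3 and 8 without each other library. The difference in read share ranged from -0.715 to -0.533 percentage points when each library was left out.

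Same-numbered libraries did not deviate together (r = -0.07, 0.06 and -0.09 over 327 miRNAs). This gave no sign of pairing by number, but cannot show that there was none. With the replicate block 4 later-annotated miRNAs, 24 of all and 14 of those numbered under 1000 were called, and the median log2 fold change was -3.92. The direction turned only for miRNAs far from the threshold. hsa-miR-1296-5p ranged from -0.80 to 0.41 when each library was left out, being positive without vehicle replicate 1. hsa-miR-1306-5p ranged from -1.06 to 0.53, being positive without vehicle replicate 1 and, at 0.37, without WA replicate 3. hsa-miR-1343-3p ranged from -0.52 without WA replicate 1 to 1.93 without WA replicate 3, and was at -0.36 without WA replicate 2 and -0.02 without vehicle replicate 2. The planned count-based tests on the reads recovered from the normalized values were not run. Depth limits the reading of WA replicate 1 most, where a listed 0 may stand for a value of up to 17.4.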
